A study of Mus musculus with 5 samples.

Results

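The H2AK119Ub peak lists of progenitors transduced with MLL-AF9 and of progenitors transduced with HOXA9 were compared with each other. All rows of both deposited lists were taken: 1408 MLL-AF9 peaks and 620 HOXA9 peaks, 2028 of the 5132 peaks in the 4 lists of the series. Each list came from chromatin immunoprecipitation and sequencing (ChIP-seq) of histone H2A ubiquitinated at lysine 119 in 1 library. The cells were lineage-negative haematopoietic progenitors from bone marrow of C57BL/6 mice, infected and kept in liquid culture. Both cultures had the genotype R26CreERT2;Ring1a-/-;Ring1bf/f;Cdkn2a-/-, so both lacked Ring1a and Cdkn2a and carried conditional Ring1b alleles with an inducible Cre. The labels do not say whether Ring1b had been deleted, how many animals were used, or which vector carried the oncogene. The remaining lists, from the same genotype, were non-transduced cells and cells transduced with PML-RARa, the fusion protein of acute promyelocytic leukaemia. They were used only as lists that had no part in the matching. Peak lists hold no expression values, so the cell type could not be checked against markers.

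H2AK119Ub is written by RING1A and RING1B, the ubiquitin ligases of Polycomb repressive complex 1 (PRC1), and it marks broad stretches over silent developmental genes, among them the Hox clusters. MLL-AF9 fuses the DNA-binding part of the histone methyltransferase MLL to AF9, a component of transcription elongation complexes, and it is known for keeping Hoxa genes and Meis1 active in myeloid leukaemia. HOXA9 is a homeobox transcription factor encoded in the HoxA cluster, and it is known as a downstream target of MLL fusions and as a driver of progenitor self-renewal. The comparison therefore sets a fusion protein beside one of its best known target genes, each expressed in progenitors of 1 genotype.

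With 1 library on each side no test between the groups was possible, and every difference below is a difference between these libraries. The depth of the libraries is unknown, because the lists hold no read counts. Intervals beside shares are exact 95% binomial ones (Clopper-Pearson). They assume independent peaks and show counting error alone. The score is the authors' own value for each peak, on an unstated scale, and served here to rank peaks inside their own list. Positions are on mm9 and count from 1.

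The MLL-AF9 list held 2.27 times as many peaks as the HOXA9 list and covered 2.02 times the length (27.0 against 13.4 Mb). Its peaks were narrower, with a mean width of 19.2 against 21.6 kb and a median of 14.6 against 17.3 kb. The middle 50% of widths ran from 9.29 to 23.9 kb in MLL-AF9 and from 10.8 to 27.0 kb in HOXA9. The best 620 MLL-AF9 peaks by score, a list as long as that of HOXA9, had a median width of 17.9 kb and covered 14.1 Mb, 1.05 times the HOXA9 length. The gap in width between the whole lists was thus not seen at equal length. However, this limit kept the best-scoring MLL-AF9 peaks and all HOXA9 peaks, and score went with width. In the upper 50% of MLL-AF9 by score 423 peaks were wider than the median, against 281 in the lower 50%. Whether list length accounts for the gap was not tested. The MLL-AF9 peaks at places 620 and 621 both had a score of 1008, which 58 peaks shared, 49 of them inside the limit.

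Most HOXA9 peaks had a partner in MLL-AF9, and most MLL-AF9 peaks had none in HOXA9. Peaks were called matched when they shared at least 1 bp. In HOXA9 449 of 620 peaks were matched (72.4%, interval 68.7 to 75.9), and in MLL-AF9 458 of 1408 (32.5%, interval 30.1 to 35.0). The unmatched peaks numbered 171 in HOXA9 and 950 in MLL-AF9. In bases, the lists shared 8.84 Mb, which was 66.1% of the HOXA9 length, 32.8% of the MLL-AF9 length and 28.0% of the length covered by either. At the best 620 peaks on each side, the matched shares were nearly equal, which lists of equal length with mostly one-to-one overlaps give by construction: 305 HOXA9 peaks (49.2%, interval 45.2 to 53.2) and 302 MLL-AF9 peaks (48.7%, interval 44.7 to 52.7) were matched. At this length 315 HOXA9 and 318 MLL-AF9 peaks had no partner. The 788 MLL-AF9 peaks below the best 620 were matched less often, at 19.8% (interval 17.1 to 22.8).

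Matching rose with the score and the width of a peak in both lists. Of the 352 MLL-AF9 peaks in the highest score quartile 55.7% were matched (interval 50.3 to 60.9), against 32.5% of the whole list. In the lowest quartile 19.0% were matched (interval 15.1 to 23.5). The widest quartile of MLL-AF9, peaks of at least 23.9 kb, was matched at 44.9%, and the narrowest, peaks of at most 9.29 kb, at 17.0%. In HOXA9 the highest score quartile was matched at 84.5% (interval 77.8 to 89.8) and the lowest at 64.5% (interval 56.4 to 72.0), against 72.4% overall. The widest HOXA9 quartile was matched at 82.6% and the narrowest at 60.0%. Score and width each went with matching when the other was held to 1 side of its median. Among MLL-AF9 peaks in the upper 50% by score, 51.3% of those wider than the median and 35.9% of the others were matched. In the lower 50% by score these shares were 24.2% and 17.0%.

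**Figure D1:**
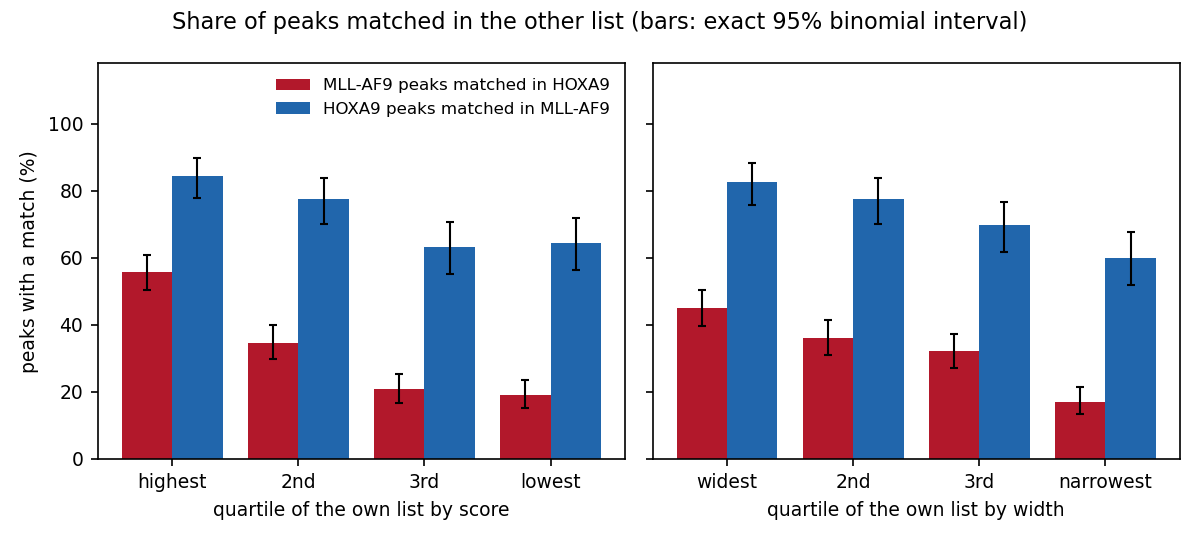
Share of peaks (%, y axis) of the MLL-AF9 list (red) and the HOXA9 list (blue) that shared at least 1 bp with a peak of the other list, by quartile of the own list by score (left) and by width (right); error bars are exact 95% binomial intervals. The share fell from 55.7% to 19.0% across the MLL-AF9 score quartiles, and the HOXA9 shares stayed above 60% except in the narrowest quartile, which was at 60.0%.

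The rankings of the best peaks were also compared, as a description. Of the 50 best HOXA9 peaks 47 (94%) had a partner somewhere among the 1408 MLL-AF9 peaks, against 72.4% of the whole HOXA9 list. Of the 50 best MLL-AF9 peaks 36 (72%) had one among the 620 HOXA9 peaks, against 32.5% of the whole MLL-AF9 list. Of the 50 best peaks of each list 11 matched one of the 50 best of the other, a narrower target than the whole list. Of the 100 best 30 matched one another, and of the 200 best 62. Over the 421 one-to-one pairs described below, Spearman's rho was 0.75 between the widths and 0.21 between the scores. These correlations run across sites of 1 pair of libraries and describe them only. Scores took few distinct values, 265 in MLL-AF9 and 176 in HOXA9, so many peaks were tied.

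Peaks without a partner were narrower and lower placed, and most lay far from any peak of the other list. Unmatched MLL-AF9 peaks had a median width of 13.1 kb and a median score of 925, against 18.4 kb and 1100.5 for matched ones. Unmatched HOXA9 peaks had a median width of 14.3 kb and a median score of 839, against 19.1 kb and 902. Very narrow peaks, under 5 kb, were unmatched in 69 of 76 cases in MLL-AF9 and in 15 of 29 in HOXA9. Over all widths 950 of 1408 MLL-AF9 peaks and 171 of 620 HOXA9 peaks were unmatched. Of the 67 MLL-AF9 peaks over 50 kb, 35 were matched and 32 were not. Of the 35 HOXA9 peaks over 50 kb, 32 were matched. The matched shares of the whole lists were 32.5% in MLL-AF9 and 72.4% in HOXA9. The median distance of an unmatched MLL-AF9 peak to the nearest HOXA9 peak was 466 kb, and 34 of 950 lay within 10 kb. For unmatched HOXA9 peaks the median distance to the denser MLL-AF9 list was 207 kb, and 8 of 171 lay within 10 kb. The smallest distance of any unmatched MLL-AF9 peak was 728 bp and the smallest overlap of any match 153 bp.

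The numbers in the peak names show where a call may have been left out of a list. They run in order along the chromosomes and have gaps, 402 in MLL-AF9 and 308 in HOXA9. The lowest listed score was 703 in MLL-AF9 and 700 in the HOXA9, the non-transduced and the PML-RARa list. Whether the missing numbers belonged to calls with lower scores was not tested. At 323 of the 950 unmatched MLL-AF9 peaks (34.0%, interval 31.0 to 37.1) the HOXA9 numbers on both sides were consecutive, so no numbered HOXA9 call was left out there. At 61 of the 171 unmatched HOXA9 peaks (35.7%, interval 28.5 to 43.3) no MLL-AF9 number was missing. At 626 and 110 of the remaining unmatched peaks at least 1 number was missing between the flanking listed peaks, and whether a left-out call lay at the peak was not tested. Absence from a list does not show that the mark was absent.

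The best-scoring MLL-AF9 peaks without a HOXA9 partner included places that both libraries outside the comparison also listed and places of MLL-AF9 alone. The first, on chromosome 8 at 124161529 to 124198495, was 37.0 kb wide, had a score of 2102, and was covered in full in the non-transduced list and over 36.8 kb in PML-RARa. Those on chromosome 5 at 121140162 to 121171269 (31.1 kb, score 1862) and on chromosome 11 at 4638491 to 4670528 (32.0 kb, score 1825) were covered over their whole length in both of these lists. In contrast, the peaks on chromosome 4 at 135736083 to 135752501 (score 1937) and on chromosome 15 at 74336666 to 74358364 (score 1930) were covered in no other list. Between 1 and 3 HOXA9 numbers were missing between the listed peaks around each of these 5 places.

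The widest unmatched MLL-AF9 peak was 131 kb long, on chromosome 5 at 125496784 to 125628069, and no HOXA9 number was missing around it. It was not covered in the non-transduced or the PML-RARa list. The next widest was on chromosome 8 at 123239053 to 123327168 (88.1 kb), of which 40.1 kb was covered in the non-transduced list and none in PML-RARa. Chromosome 4 held a peak of 86.6 kb at 154352600 to 154439229, which the non-transduced list covered in full and the PML-RARa list over 56.3 kb. Chromosome 11 held one of 83.4 kb at 118810235 to 118893616, of which PML-RARa covered 81.5 kb and the non-transduced list none. A second one on chromosome 8, of 82.1 kb at 124806579 to 124888657, was covered over 81.9 kb in non-transduced cells and over its whole length in PML-RARa. Around each of these places other than the first, 1 or 2 HOXA9 numbers were missing. The 5 widest thus showed 4 different patterns across the lists that took no part in the matching.

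HOXA9 peaks without an MLL-AF9 partner stood lower in their list. The highest score among them was 1315, at 3.06% of the list from the top, for a 10.3 kb peak on chromosome 2 at 17958668 to 17969015. It lay entirely within covered stretches of both the non-transduced and the PML-RARa list. A peak on chromosome 7 at 31900638 to 31915170 had the same score and was 14.5 kb wide, of which 7.65 kb was covered in the non-transduced list and all in PML-RARa. The peak on chromosome 16 at 90827351 to 90840574 (13.2 kb, score 1197) was in the HOXA9 list alone, and no MLL-AF9 number was missing there. The others were on chromosome 2 at 146041161 to 146058110, with a score of 1169, and chromosome 4 at 117148514 to 117187095, with a width of 38.6 kb and a score of 1148. Both lists outside the comparison covered most of each. Around each of the first 2 places 4 MLL-AF9 numbers were missing. Around the place at 146041161 on chromosome 2 it was 3, and around that on chromosome 4 it was 1.

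Where 1 peak of each list overlapped 1 of the other and nothing else, the widths were close. There were 421 such pairs, with a median MLL-AF9 width of 18.1 kb and a median HOXA9 width of 18.6 kb. The MLL-AF9 over HOXA9 width ratio had a median of 0.994, with an exact binomial 95% interval of the median of 0.976 to 1.01 that treats pairs as independent. The MLL-AF9 peak was narrower in 225 pairs and wider in 196. The middle 50% of ratios ran from 0.829 to 1.19, and single pairs from 0.156 to 4.34. In 65 pairs (15.4%) the MLL-AF9 peak was wider by at least 1.5 times, and in 50 pairs (11.9%) the HOXA9 peak was. The other 306 pairs lay within 1.5 times. In 354 pairs the overlap covered at least 50% of both peaks. The narrower median of the whole MLL-AF9 list (0.844 of the HOXA9 median) was therefore not found within the pairs.

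**Figure D2:**
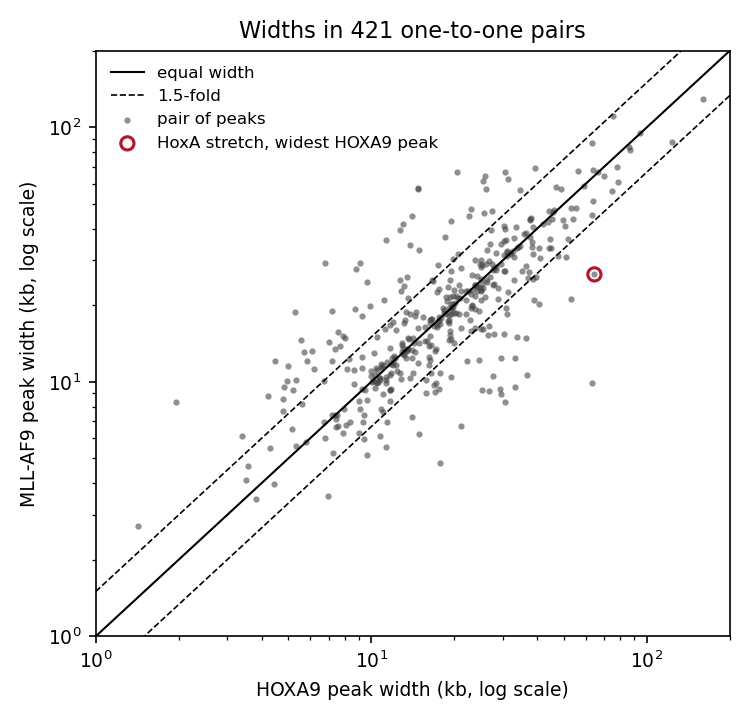
Width of the MLL-AF9 peak (kb, log scale, y axis) against that of the HOXA9 peak (kb, log scale, x axis) in 421 one-to-one pairs; the solid line marks equal width, the dashed lines a 1.5-fold difference, and the red circle the pair of the widest HOXA9 peak over the HoxA cluster. Points lie on both sides of the line, with a median ratio of 0.994.

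Most peak ends lay over 1000 bp from the end of the partner. The left ends were within 1000 bp of each other in 182 pairs and the right ends in 205, and both ends were in 101. The median distance between left ends was 1560 bp and between right ends 1094 bp. The MLL-AF9 peak lay inside the HOXA9 peak in 123 pairs, the HOXA9 peak inside the MLL-AF9 peak in 101, and the peaks were staggered in 197. Of the 65 pairs with a wider MLL-AF9 peak, 27 had 1 end within 1000 bp and differed at the other, and 38 differed at both ends. Of the 50 with a wider HOXA9 peak these numbers were 24 and 26.

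The bases that only 1 peak of a pair covered were looked up in the other lists. In the 65 pairs with a wider MLL-AF9 peak, 1022 kb belonged to MLL-AF9 and not to HOXA9, of which 47.3% was covered in the non-transduced list and 56.6% in PML-RARa. The 824 kb that the peaks of these pairs shared was covered at 74.9% and 76.5%. In the 50 pairs with a wider HOXA9 peak, 735 kb belonged to HOXA9 alone of the pair, of which 38.5% was covered in the non-transduced list and 52.7% in PML-RARa. The 627 kb shared there was covered at 59.8% and 83.9%. In the 306 pairs within 1.5 times, the bases of MLL-AF9 outside HOXA9 were covered at 46.2% in the non-transduced list and 53.8% in PML-RARa, and those of HOXA9 outside MLL-AF9 at 44.9% and 47.7%. Both libraries could also be set against 1 peak of a further list. In the 298 pairs with the same non-transduced partner, the median width was 0.954 of that partner in MLL-AF9 and 0.920 in HOXA9. In the 337 pairs with the same PML-RARa partner these medians were 0.898 and 0.934. These ratios share their denominators.

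The 5 pairs with the largest MLL-AF9 over HOXA9 ratio all had the HOXA9 peak inside the MLL-AF9 peak. On chromosome 10 a HOXA9 peak of 6.77 kb lay in an MLL-AF9 peak of 29.4 kb at 77420612 to 77450035 (ratio 4.34), a place covered in no other list. On chromosome 16 at 34568722 to 34577071 the widths were 8.35 and 1.96 kb (ratio 4.26). An MLL-AF9 peak of 57.9 kb on chromosome 6 at 29358202 to 29416131 held a HOXA9 peak of 14.8 kb (ratio 3.91). The HOXA9 peak there stood at 13.7% of its list by score and the MLL-AF9 peak at 88.8%, so the wider peak was the lower placed. The other pairs were on chromosome 7 at 146752815 to 146809928 (57.1 against 14.8 kb) and chromosome 10 at 61429999 to 61448876 (18.9 against 5.31 kb).

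At the other end, a HOXA9 peak of 63.3 kb on chromosome 4 at 150160725 to 150224022 held an MLL-AF9 peak of 9.90 kb (ratio 0.156), and no other list covered it. On chromosome 11 at 69749719 to 69767550 the HOXA9 peak was 17.8 kb and the MLL-AF9 peak 4.82 kb, with left ends at 69749719 and 69749562. Over the stretch that both peaks span together, 69749562 to 69767550, the non-transduced and the PML-RARa list covered 18.0 and 17.9 kb, close to the HOXA9 width. Further pairs were on chromosome 5 at 143156382 to 143186967 (30.6 kb for HOXA9 against 8.36 kb) and chromosome X at 90519874 to 90553205 (33.3 and 9.50 kb). On chromosome 11 at 82746608 to 82783364 the HOXA9 peak spanned 36.8 kb and the MLL-AF9 peak 10.7 kb. This narrow MLL-AF9 peak had a score of 1587, among the highest 2.77% of its list, while the wide HOXA9 peak stood at 49.0%.

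**Figure D3:**
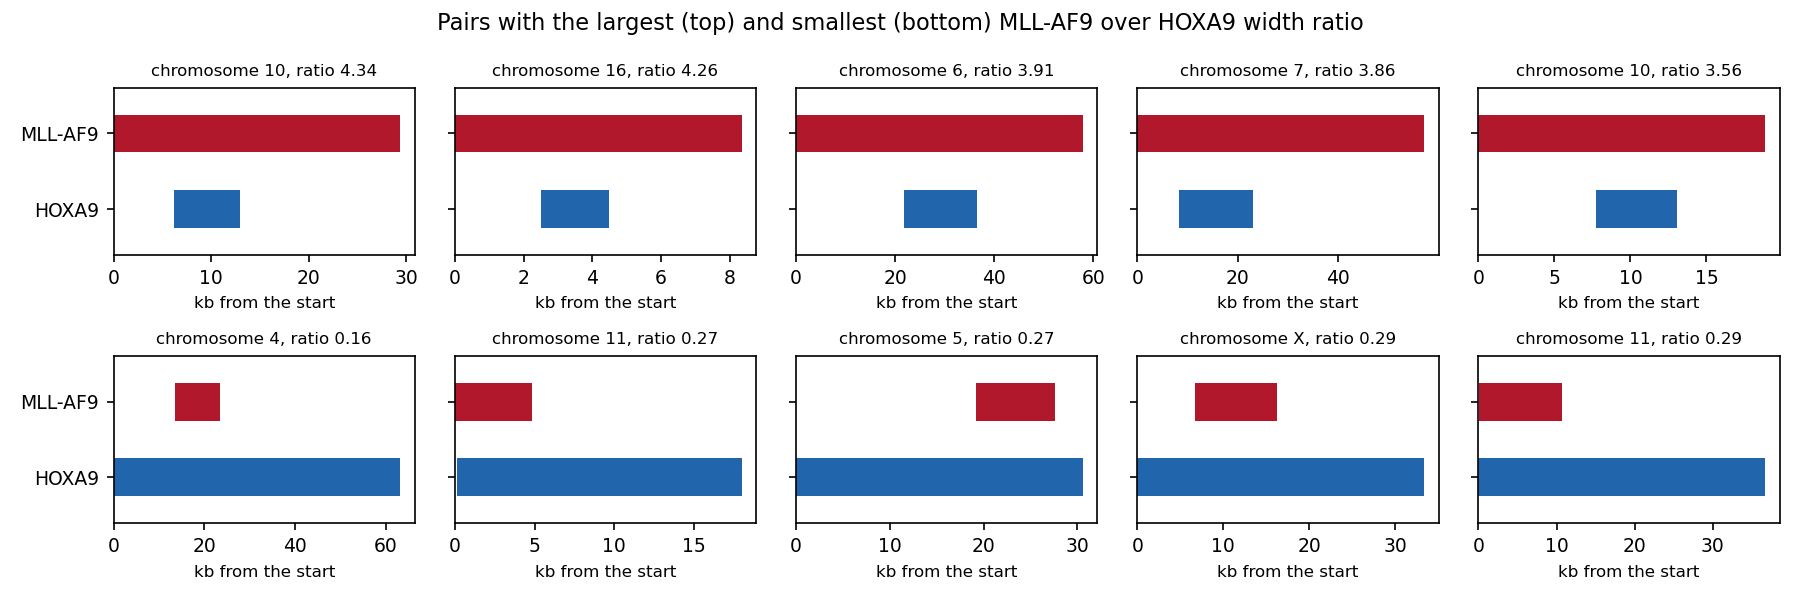
Extent of the MLL-AF9 peak (red) and the HOXA9 peak (blue) in the 5 pairs with the largest width ratio (top) and the 5 with the smallest (bottom); the x axis is the distance in kb from the start of the first of both peaks. Ratios run from 4.34 to 3.56 in the top row and from 0.156 to 0.290 in the bottom row, and the 5 HOXA9 peaks of the top row lie inside the MLL-AF9 peak.

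Few peaks shared at least 1 bp with 2 peaks of the other list. Among the 1408 MLL-AF9 peaks 7 did so, and among the 620 HOXA9 peaks 16. None met more than 2. These counts include peaks that barely touched the second one. At the HoxD cluster the second MLL-AF9 peak shared 0.153 kb with the HOXA9 peak. At Wnt1 and Wnt10b the MLL-AF9 peak shared 0.773 kb with the second HOXA9 peak. The widest HOXA9 peak of this kind, 107.7 kb on chromosome 18 at 38708392 to 38816079, met MLL-AF9 peaks of 9.53 and 76.6 kb. One of 70.3 kb on chromosome 11 at 115162916 to 115233190 met MLL-AF9 peaks of 57.9 and 5.71 kb. On chromosome 8 at 114299788 to 114362538 a HOXA9 peak of 62.8 kb met MLL-AF9 peaks of 15.7 and 47.4 kb. The HOXA9 peak of 69.4 kb on chromosome 4 at 135770618 to 135840010 met MLL-AF9 peaks of 37.6 and 43.5 kb. The MLL-AF9 peak with a score of 1937 named above ended at 135752501, just before the first of these, which began at 135753345. In the opposite direction, an MLL-AF9 peak of 67.2 kb on chromosome 5 at 28442767 to 28509963 lay over HOXA9 peaks of 15.5 and 41.2 kb. One of 66.9 kb on chromosome 18 at 60747622 to 60814563 lay over HOXA9 peaks of 42.3 and 24.3 kb.

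Pairs were ordered by their mean place, taken as a percentage of the own list. The best pair was on chromosome 15, with an MLL-AF9 peak of 64.2 kb at 88959376 to 89023546 and a HOXA9 peak of 70.2 kb. The next pair was on chromosome 3 at 89115320 to 89158541. Its MLL-AF9 peak was 43.2 kb wide (score 1657) and its HOXA9 peak 37.6 kb (score 1537). On chromosome 14 at 121851129 to 121882160 the MLL-AF9 peak of 31.0 kb was near the top of its list (score 2178), and the HOXA9 peak was 32.9 kb. On chromosome 2 at 38188479 to 38236491 the widths were 48.0 and 53.2 kb. The MLL-AF9 peak with the highest score of its list (2246), on chromosome 7 at 19654894 to 19679038, was 24.1 kb wide. Its HOXA9 partner at 19632152 to 19679059 was 46.9 kb wide and stood at 16.6% of its list, and the right ends nearly coincided. MLL-AF9 peaks covered 31.9 kb of that HOXA9 peak, more than the width of this MLL-AF9 peak. The HOXA9 peak thus met a further MLL-AF9 peak, and these peaks were not a one-to-one pair.

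Some pairs stood far apart in the rankings. On chromosome 9 at 20520992 to 20535582 an MLL-AF9 peak of 14.6 kb was in the best 1.21% of its list, and its HOXA9 partner of 19.2 kb was at 99.4%. On chromosome 17 at 27639427 to 27661514 the places were 1.49% in MLL-AF9 and 82.4% in HOXA9, with widths of 22.1 and 23.0 kb. On chromosome 19 at 42271277 to 42279648 the widths were 8.37 and 9.02 kb and the places 5.68% and 99.0%. The pair on chromosome 4 at 115602342 to 115619418 had widths of 17.1 and 16.3 kb and places of 6.46% and 95.8%. On chromosome 15 at 98925017 to 98932450 the widths were 7.43 and 7.23 kb and the places 17.8% and 98.1%. In the other direction, on chromosome 10 at 75017945 to 75028153 the MLL-AF9 peak of 10.2 kb was at 96.6% and the HOXA9 peak of 11.4 kb at 4.52%. On chromosome 3 at 88894702 to 88900285 the places were 98.3% and 8.87%, with widths of 5.58 and 5.31 kb.

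In the whole lists, peaks shared by MLL-AF9 and HOXA9 were present in the other libraries more often than unmatched peaks. A non-transduced peak overlapped 351 of the 458 matched MLL-AF9 peaks (76.6%, interval 72.5 to 80.4) and 417 of the 950 unmatched ones (43.9%, interval 40.7 to 47.1). A PML-RARa peak overlapped 86.9% of the matched (interval 83.5 to 89.9) and 53.8% of the unmatched MLL-AF9 peaks (interval 50.6 to 57.0). Of the unmatched MLL-AF9 peaks, 302 were in both other lists, 115 in the non-transduced list only and 209 in PML-RARa only. The remaining 324 (34.1%) were in neither. HOXA9 peaks gave the same order: 77.3% of the matched were in the non-transduced list and 86.9% in PML-RARa, against 37.4% (interval 30.2 to 45.1) and 63.2% (interval 55.5 to 70.4) of the 171 unmatched. Of these 171, 47 were in both other lists, 61 in PML-RARa only, 17 in the non-transduced list only and 46 in neither. Matched peaks also had higher scores and larger widths, and the part of these in the shares was not tested.

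At equal list length, unmatched HOXA9 peaks were found about as often in the non-transduced list as in PML-RARa, but the set of unmatched peaks was a different one. In the whole MLL-AF9 list only 171 HOXA9 peaks had no partner, so many of those unmatched at the best 620 had a lower-placed MLL-AF9 partner. The change of set and the change of list length cannot be told apart here. With the best 620 peaks of all 4 lists, 29.8% of the 315 unmatched HOXA9 peaks were in the non-transduced list (interval 24.8 to 35.2) and 30.5% in PML-RARa (interval 25.4 to 35.9). For the 318 unmatched MLL-AF9 peaks these shares were 34.6% (interval 29.4 to 40.1) and 30.8% (interval 25.8 to 36.2). Of the 302 matched MLL-AF9 peaks at this length, 53.3% were in the non-transduced list and 62.3% in PML-RARa. Of the matched peaks, 69 of 305 in HOXA9 (22.6%) and 67 of 302 in MLL-AF9 (22.2%) were in neither other list at this length, against 29 of 449 and 30 of 458 in the whole lists.

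**Figure D4:**
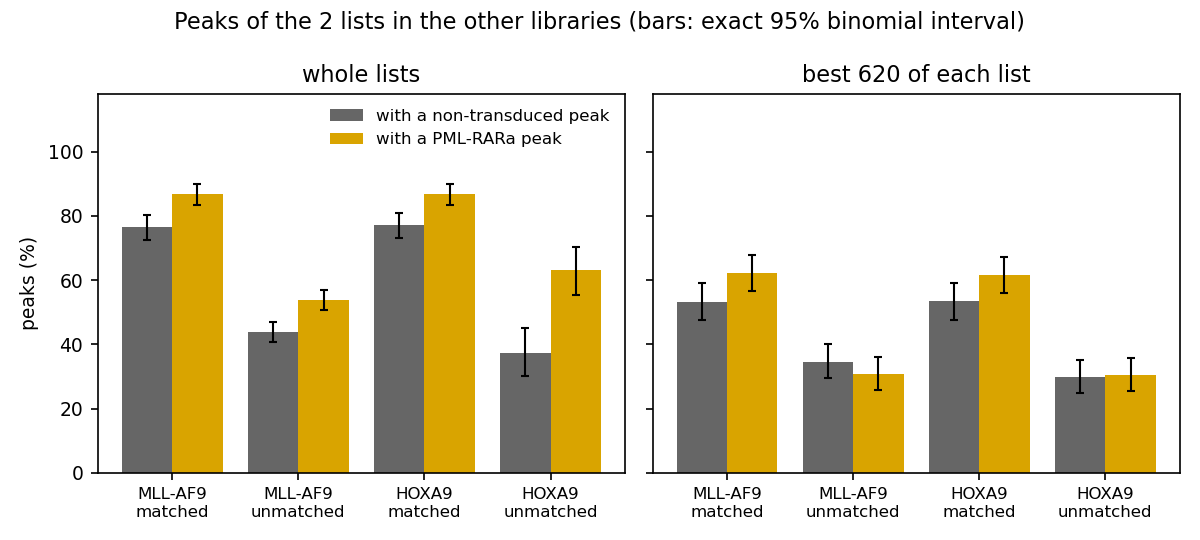
Share of MLL-AF9 and HOXA9 peaks (%, y axis), split by whether they had a match in each other's list, that overlapped a non-transduced peak (grey) or a PML-RARa peak (yellow), for whole lists (left) and the best 620 peaks of each list (right); error bars are exact 95% binomial intervals. Matched peaks were found in the other libraries more often than unmatched ones in all 8 comparisons, for example 76.6% against 43.9% for MLL-AF9 peaks in the non-transduced list.

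The Hox clusters, chromosome stretches that hold the homeobox genes of body patterning and on which PRC1 is best known to act, were listed in both libraries at HoxA, HoxC and HoxD and in MLL-AF9 alone of the pair at HoxB. No mm9 annotation was used here. The names of the clusters and of the 4 developmental loci below come from general knowledge of where they lie in mm9, were attached with results of these data known, and assign no peak to a single gene. Over the HoxA cluster on chromosome 6, which holds the gene of HOXA9 itself, each list had 3 peaks. The HOXA9 peaks were 64.5, 26.3 and 26.0 kb wide, and the MLL-AF9 peaks 26.4, 24.7 and 29.1 kb. The first MLL-AF9 peak began at 52183835, 38.1 kb to the right of the HOXA9 start at 52145743, and their right ends were 14 bp apart. Its ratio of 0.410 was matched or undercut by 15 of the 421 pairs, this one included. The MLL-AF9 peak numbers 1362, which ended at 51147329, and 1363 were consecutive, so no numbered MLL-AF9 call was left out over those 38.1 kb. The non-transduced peak there began at 52141970 and was 68.3 kb wide. The PML-RARa peak began at 52142117 and was 68.2 kb wide. Both were thus close to the HOXA9 peak in start and width, and MLL-AF9 was the list that differed. The next pair, at 52211261 to 52235937 in MLL-AF9, was nearly equal in width but stood at 86.2% of the MLL-AF9 list and at 4.68% of the HOXA9 list. In the pair farthest right the MLL-AF9 peak (score 1628) and the HOXA9 peak (score 1315) were both near the top of their list.

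Over the HoxB cluster on chromosome 11 the MLL-AF9 list had 4 peaks, of 19.1, 34.9, 58.0 and 20.2 kb between 95999308 and 96219826, and the HOXA9 list had none. The non-transduced list had 5 peaks and the PML-RARa list 3 in the same stretch. HOXA9 numbers 129 and 132 flanked it, so 2 HOXA9 numbers were missing between the flanking peaks, and whether calls with these numbers lay in the cluster was not tested. The HoxC cluster on chromosome 15 was the widest HOXA9 peak, 159.9 kb at 102742683 to 102902590. The MLL-AF9 peak there was 129.7 kb at 102745099 to 102874819 and lay inside it. By score the MLL-AF9 peak was in place 12 of its list and the HOXA9 peak in place 247. Over the HoxD cluster on chromosome 2 a HOXA9 peak of 65.3 kb and an MLL-AF9 peak of 64.2 kb began at 74491985 and 74491986. A further MLL-AF9 peak of 37.6 kb at 74557140 to 74594785 shared 153 bp with the HOXA9 peak. The MLL-AF9 list placed the first HoxD peak at 0.923% and the HOXA9 list at 26.3%.

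At each of 4 further developmental loci the widest HOXA9 peak was wider than the widest MLL-AF9 peak. Over all pairs the HOXA9 peak was the wider in 225 of 421, and the covered length at these loci did not always follow the widest peak: at the forkhead locus MLL-AF9 covered 38.8 kb and HOXA9 30.8 kb. The non-transduced and PML-RARa lists covered more than HOXA9 at Tbx2 and Tbx4 (68.6 and 72.3 against 63.8 kb). The same held at Wnt1 and Wnt10b (43.7 and 54.7 against 36.5 kb). They covered less at Tlx1 and Lbx1 (101 and 119 against 137 kb). At the forkhead locus they covered 22.3 and 43.3 kb. At the limb and heart regulators Tbx2 and Tbx4 on chromosome 11, the best-scoring HOXA9 peak (1736) spanned 39.7 kb at 85627585 to 85667244 and held the MLL-AF9 peak of 25.8 kb, while the neighbouring pair was 24.2 and 23.5 kb wide. At the signalling genes Wnt1 and Wnt10b on chromosome 15, the MLL-AF9 list had 1 peak of 11.1 kb (score 1648) and the HOXA9 list peaks of 9.46 and 27.1 kb. The wider of these had the lowest score of the HOXA9 list (700), and the MLL-AF9 peak covered 0.773 kb of it. At the homeobox genes Tlx1 and Lbx1 on chromosome 19, HOXA9 peaks of 51.8 and 64.0 kb stood against MLL-AF9 peaks of 36.5 and 51.6 kb, and a HOXA9 peak of 21.6 kb at 45361035 to 45382621 was unmatched. The non-transduced and the PML-RARa list each had a peak there that shared 16.2 kb with HOXA9. To the right of the MLL-AF9 peaks at the Wnt and Tlx1 loci 1 MLL-AF9 number was missing, so a left-out call could lie there. At the forkhead genes Foxq1, Foxf2 and Foxc1 on chromosome 13, the peak at 31884656 to 31915437 was 30.8 kb in HOXA9 and 19.5 kb in MLL-AF9. At that place PML-RARa had a peak of 22.0 kb and the non-transduced list had none. A further MLL-AF9 peak of 19.3 kb at 31704604 to 31723891 had no HOXA9 partner, and 1 HOXA9 number was missing on that side. The non-transduced and the PML-RARa list each had a peak that covered this MLL-AF9 peak in full.

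**Figure D5:**
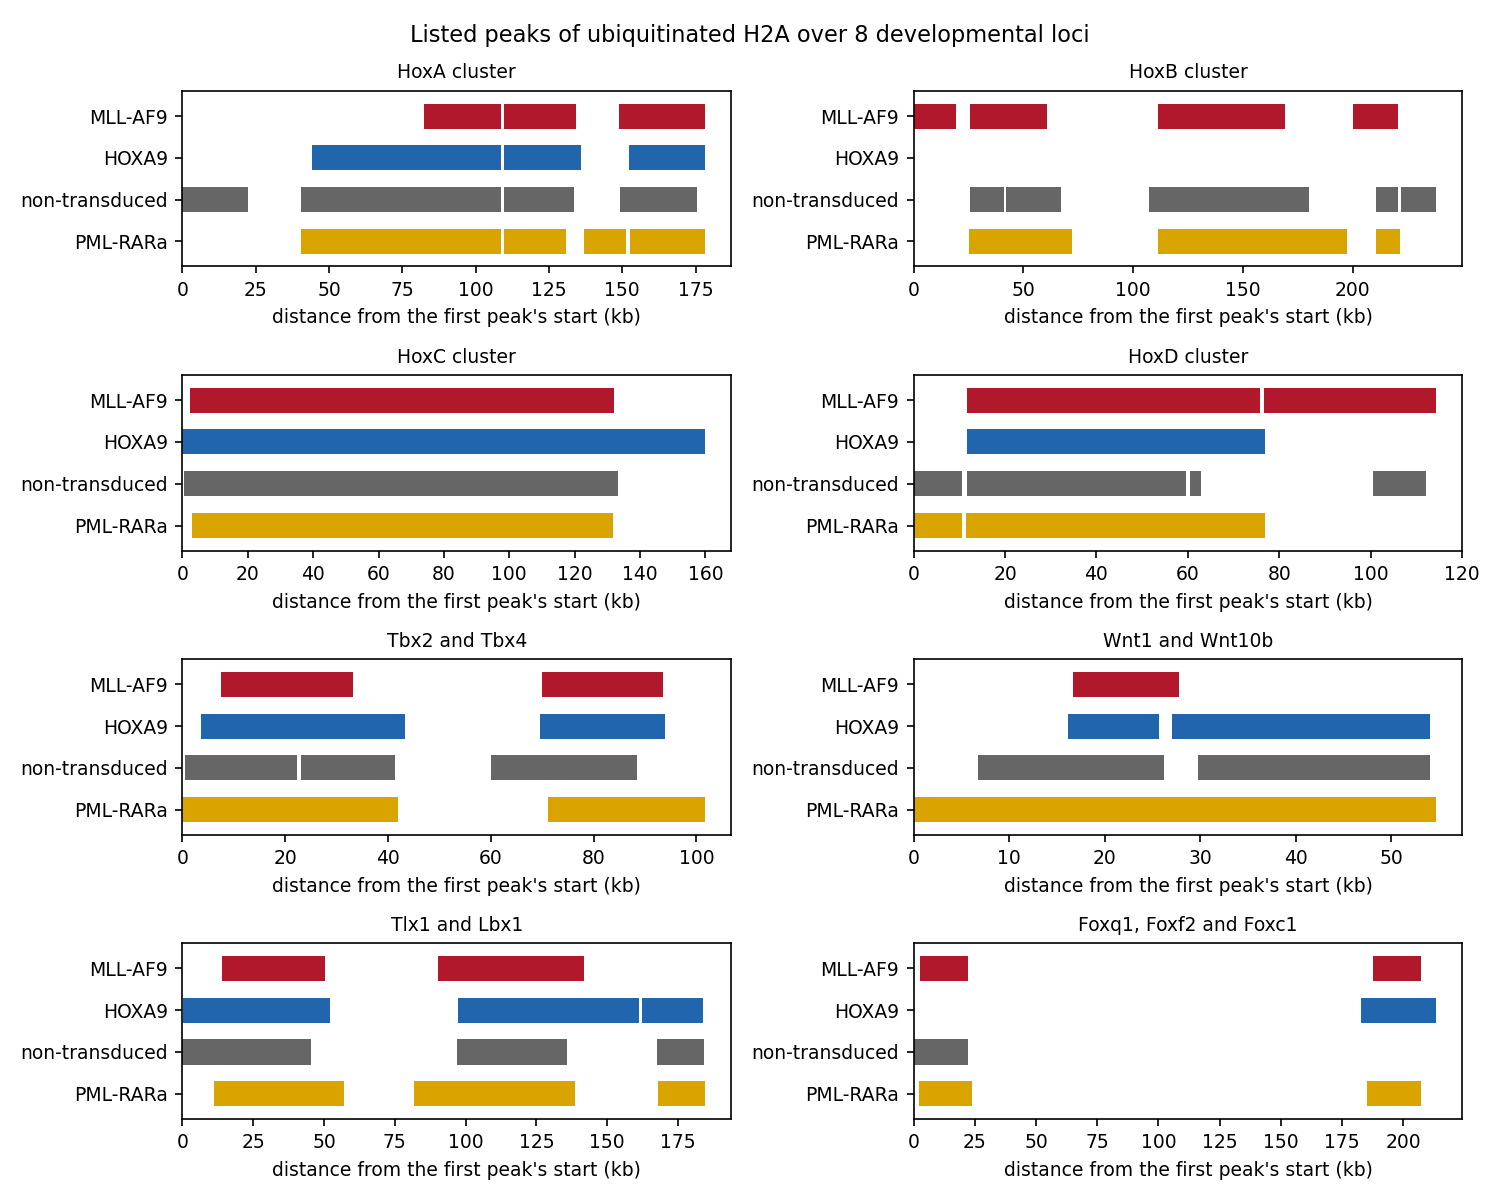
Extent of the listed peaks of the 4 libraries (rows) over the Hox clusters and 4 further developmental loci; the x axis is the distance in kb from the start of the first peak of any library in that stretch. The MLL-AF9 peak begins 38.1 kb to the right of the HOXA9 peak at HoxA, and the HOXA9 row is empty at HoxB.

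The excess of MLL-AF9 peaks was found on every chromosome. On the autosomes the ratio of MLL-AF9 to HOXA9 peaks ran from 1.55 on chromosome 3 to 3.07 on chromosome 8, around 2.27 for the whole lists. The matched share of MLL-AF9 peaks ran from 25.0% on chromosomes 1 and 9 to 43.8% on chromosome 3. On chromosome 3 the interval of 29.5 to 58.8 included the 32.5% of the whole list. The matched share of HOXA9 peaks on the autosomes ran from 57.1% on chromosome 13 to 86.4% on chromosome 12, and the intervals of both (34.0 to 78.2 and 65.1 to 97.1) included the 72.4% of the whole list. Chromosome X had 6 MLL-AF9 and 2 HOXA9 peaks.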

How the data were processed

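The authors deposited 1 peak list per library on build mm9, made with Bowtie and MACS2 per the submitters' processing notes. The version of each tool is not given in the sources used here, nor are settings or any role of the input. The files have 5 columns without a header: chromosome, start, end, name and score. The deposited score is the authors' value for each peak, and its scale is not stated. Start and end were read as BED positions and printed counting from 1. No list held overlapping peaks.

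Overlaps, one-to-one pairs, shares, widths and gaps in the peak numbers were computed with Python 3.11.15 (numpy 2.4.6, pandas 2.3.3), intervals with scipy 1.17.1 and plots with matplotlib 3.10.9. Ties in score kept file order. The interval code was tested on simulated lists, where 400 of 400 matches and 380 of 380 pairs were found. Up to 5 regions were named per rule. The rules were best mean place and extreme difference in place, both as a percentage of the own list, and extreme width ratio. Further rules were highest score or greatest width among unmatched peaks, and peaks over several others. The members, lists and loci were chosen with earlier results of these data known. The gene table at hand belongs to GRCm38, so planned promoter counts were not run and no sequence is printed. The input was not analysed here.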

Additional observations from a re-analysis of the deposited data

How the results depend on the processing

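The median width ratio in pairs stayed within its interval under every alternative tried, from 0.983 with an overlap of at least 50% to 0.994. Matching within 1000 bp and merging within 1000 bp left all shares within their intervals. With the upper 75% of each list by score, 29.1% of MLL-AF9 and 65.4% of HOXA9 peaks were matched, and with the upper 50% 28.0% and 62.9%. An overlap of at least 50% gave 29.1% and 67.3%. The best 620 peaks gave 48.7% and 49.2% and a ratio of covered length of 1.05 in place of 2.02. The share of unmatched peaks found in the non-transduced or PML-RARa list, 65.9% in MLL-AF9 and 73.1% in HOXA9, was 58.6% and 64.3% with the upper 50% and 49.7% and 46.0% with the best 620. These alternatives shorten the lists or narrow what counts as a match by construction, and they thereby change which peaks count as unmatched. Without read counts, depth could not be equalised. The planned promoter counts were not run. No paired analysis was possible because each group had 1 library.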
